A study of Mus musculus with 12 samples.

Results

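The 10 genes described here encode the parts of the Notch pathway that are best known from blood vessels: the receptors Notch1, Notch2 and Notch4, the ligands Dll4, Jag1 and Jag2, the target genes Hey1, Heyl and Nrarp, and the DNA-binding factor Rbpj. They were taken by symbol from a table of 24421 gene symbols, and all 10 were among the 13534 genes with enough counts to be tested. Their levels were compared between tumours of 2 lines, with and without adjustment for how much endothelial RNA each library held. That content was read from Cdh5, which encodes VE-cadherin, and Pecam1, which encodes CD31; neither is among the 10.

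Libraries were made from ribosome-bound mRNA of subcutaneous tumours grown for 12 days in mice of genotype Rpl22fl/flHA;Cdh5(PAC)-CreERT2 on the C57BL/6 strain. Tamoxifen switches on a Cre recombinase that is driven by the Cdh5 promoter, so that Rpl22, a ribosomal protein, carries an HA tag in endothelial cells and their ribosomes can be pulled down with the mRNA they carry. The tumours came from B16F10, a highly metastatic mouse melanoma line (n = 7 libraries), or from B16F0, a poorly metastatic line of the same melanoma (n = 5). Both groups shared the host alleles and the tamoxifen treatment, so the comparison is between tumour lines in the same kind of host. No vessels from outside a tumour and no mice without the tag were analysed here, and no field of the labels states age or sex; letters in the library names are not explained there. They also do not say whether each library came from a separate animal, and the p-values below then reflect only the spread among these 12 libraries, which may be technical.

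Notch signalling passes between cells in contact. A ligand on one cell binds a receptor on its neighbour, the receptor is cut by proteases of the ADAM family and by gamma-secretase, and its intracellular domain joins Rbpj on DNA to switch on genes such as those of the Hey and Hes families. In sprouting vessels Dll4 on the leading tip cell restrains sprouting in the cells behind it, while Jag1 opposes Dll4 and also signals from endothelium to the mural cells (pericytes and smooth muscle cells) around the vessel. Notch4 and Dll4 are largely endothelial, whereas Notch2, Jag1 and Rbpj are made by many cell types.

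The stretches of DNA before the start sites of 4 of these genes are shown because the first 3 followed the endothelial content of the libraries and the fourth, Notch2, was not called for it. Sequences come from RefSeq (build GRCm38.p6), which matched 8 of the 10 genes, in windows of 250 bases before the start. Windows were left out, or shortened, where they overlap a gene's own transcribed span. Each is written 5′ to 3′ on the plus strand, which is the strand of all 4 genes. Capitals mark matches on either strand to AGGAAG (reverse complement CTTCCT), a core bound by ETS factors, or to CACGTG, an E-box core of the kind bound by HEY proteins.
Notch4, chr17:34564045-34564267: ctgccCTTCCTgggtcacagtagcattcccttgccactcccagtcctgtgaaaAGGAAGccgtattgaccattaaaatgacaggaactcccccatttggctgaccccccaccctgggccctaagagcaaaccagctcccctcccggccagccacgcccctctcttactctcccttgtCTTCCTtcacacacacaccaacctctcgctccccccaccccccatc
Dll4, chr2:119325534-119325783: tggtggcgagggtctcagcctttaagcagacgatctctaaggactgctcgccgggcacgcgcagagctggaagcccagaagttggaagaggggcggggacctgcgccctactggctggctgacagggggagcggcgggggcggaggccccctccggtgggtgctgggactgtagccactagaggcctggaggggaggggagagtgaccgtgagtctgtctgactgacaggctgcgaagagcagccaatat
Nrarp, chr2:25180508-25180757: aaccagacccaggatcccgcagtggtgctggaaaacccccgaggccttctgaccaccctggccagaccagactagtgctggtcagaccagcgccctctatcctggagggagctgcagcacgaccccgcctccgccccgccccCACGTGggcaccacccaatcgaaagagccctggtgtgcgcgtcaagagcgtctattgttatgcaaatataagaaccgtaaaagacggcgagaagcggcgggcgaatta
Notch2, chr3:98013288-98013526: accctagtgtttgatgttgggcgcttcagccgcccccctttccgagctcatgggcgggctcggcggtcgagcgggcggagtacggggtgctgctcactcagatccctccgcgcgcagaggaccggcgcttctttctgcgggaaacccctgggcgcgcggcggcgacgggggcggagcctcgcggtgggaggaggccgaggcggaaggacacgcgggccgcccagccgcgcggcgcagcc

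The Notch4 window held 3 matches to AGGAAG, at positions -245, -197 and -73 from the RefSeq start, and the Nrarp window held 1 match to CACGTG at -108. The full Notch4 window ends at chr17:34564294, so the shortened stretch printed above stops before that start. Neither the Dll4 nor the Notch2 window held any of the motifs searched. Nor did the windows of Notch1, Jag1 and Jag2, of which Notch1 and Jag2 also followed the endothelial content. The third motif was TGGGAA (reverse complement TTCCCA), the core bound by RBPJ itself. Of the 8 matched genes only Rbpj held it, at -149 and -65 from one start and at -205 from a second. The windows of these 2 starts overlap, and -65 and -205 are the same match. Among 32851 mouse promoter windows of the same length 29.5% held AGGAAG, 6.02% held CACGTG and 21.6% held TGGGAA. The matches describe these letters only.

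Library totals ran from 5322510 to 20569186 counts. The endothelial index, the mean log2 CPM (read counts scaled to library size) of Cdh5 and Pecam1, was 9.47 in B16F0 replicate 3, 9.31 in B16F10 replicate 4 and 8.70 in B16F10 replicate 5, and lay between 6.30 and 7.45 in the other 9 libraries. B16F10 libraries averaged 7.45 ± 1.11 (SD, n = 7) and B16F0 libraries 7.55 ± 1.14 (SD, n = 5), a difference within the spread (two-sided exact permutation test, p = 0.874, and p = 0.928 within sequencing lanes). A mural index (Pdgfrb, Rgs5 and Cspg4) stood at 5.71 and 5.94 in B16F10 replicates 1 and 2 and at 2.14 to 3.37 in the other 10 libraries. The same 2 libraries had the highest levels of 1494 olfactory, vomeronasal and taste receptor genes, which serve here as a measure of background reads, with 959 and 775 CPM against 10.6 to 339 CPM elsewhere. Libraries that stood apart shared names: B16F10 replicate 4 and B16F0 replicate 3 are the only 2 with their name prefix, and B16F10 replicates 1 and 2 the only 2 with theirs, so what else those prefixes stand for cannot be told apart from these contents. The ribosomal RNA symbol Rn45s took 31.4% of counts in B16F10 replicate 5, 8.91% in B16F0 replicate 5 and at most 1.75% in the rest. All 23 pan-endothelial markers tested rose with the endothelial index, beside 4.1% of all tested genes. They include Cdh5 and Pecam1, whose rise with the index is built in. Melanoma genes were abundant everywhere: 11 melanocytic markers summed to between 9006 and 19209 CPM in B16F10 and between 11261 and 19349 CPM in B16F0. For the 23 endothelial markers the sums were 842 to 6165 CPM in B16F10 and 1124 to 6709 CPM in B16F0. Because the libraries are mixtures, fewer cells of a type and less RNA per cell cannot be told apart.

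Per kilobase of transcript, the scale on which genes can be compared with each other, the receptor Notch4 and the ligand Dll4 had the highest means of the 10 over all 12 libraries, at 11.6 and 11.3 CPM per kb. Notch2 followed at 9.19, Nrarp at 8.03, Jag1 at 7.40, Notch1 at 5.85, Rbpj at 5.31 and Hey1 at 5.10 CPM per kb. Jag2 stood lower at 2.37 CPM per kb and Heyl lowest at 0.341. Cdh5 and Pecam1 reached 66.9 and 66.1 CPM per kb on the same scale. The 3 endothelium-rich libraries raised the first of these means: by the median Notch2 was the most abundant, with 9.29 CPM per kb in B16F10 and 8.40 in B16F0, against 7.26 and 5.39 for Notch4 and 7.29 and 5.92 for Dll4. The spread over libraries was too wide to order most neighbours: Notch4, for example, had a mean of 13.6 ± 12.7 CPM per kb (SD, n = 7) in B16F10, and Notch2 one of 9.69 ± 1.48.

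**Figure D1:**
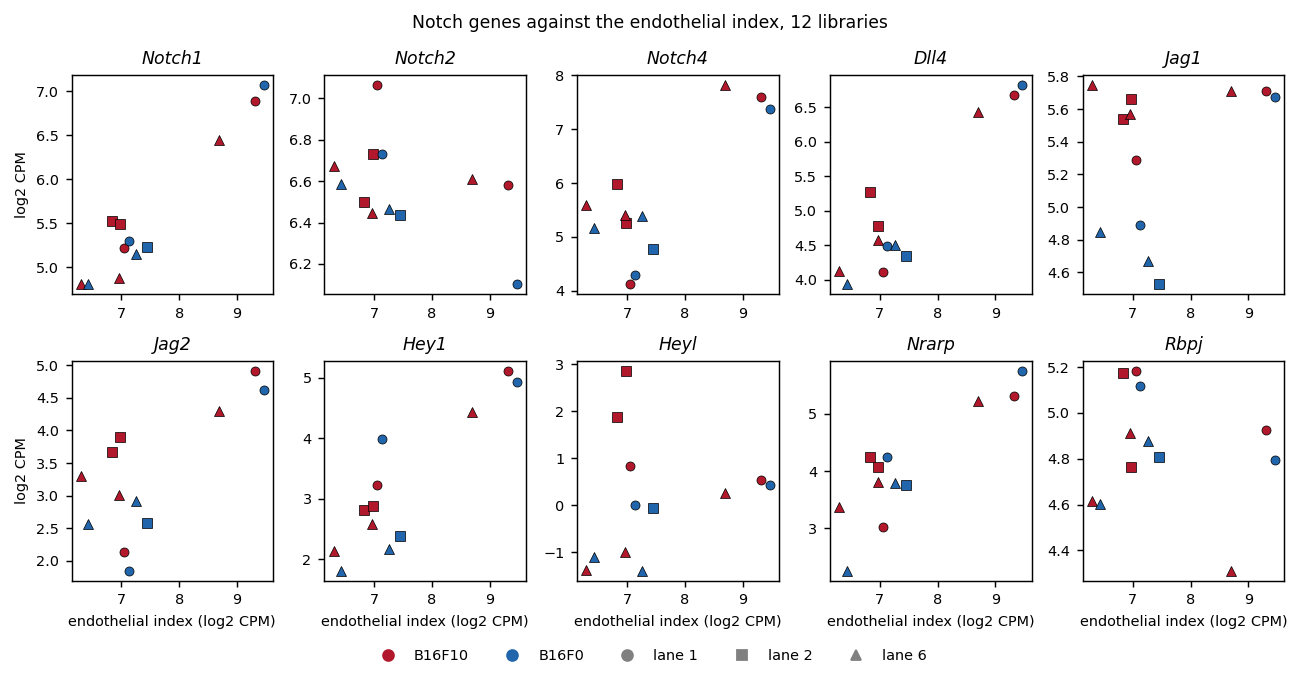
Level of each of the 10 Notch pathway genes (CPM, log axis) against the endothelial index of the library (mean log2 CPM of Cdh5 and Pecam1). Each point is 1 library, 7 of B16F10 and 5 of B16F0; Notch1, Notch4, Dll4, Jag2, Hey1 and Nrarp are higher in the 3 libraries with an index of 8.70 or more than in the other 9, while Notch2, Jag1, Heyl and Rbpj overlap.

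Of the 10 genes, 6 followed the endothelial content of the libraries: the receptors Notch1 and Notch4, the ligands Dll4 and Jag2, and the targets Hey1 and Nrarp. All 6 were higher in each of the 3 endothelium-rich libraries than in any of the other 9, as were 4.71% of all tested genes. None of Notch2, Jag1, Heyl and Rbpj was called for a slope. In edgeR's quasi-likelihood fit with lane, tumour line and index, 6 of 10 genes had a positive slope at a false discovery rate of 0.05 and none a negative one, where 4.1% of all tested genes had a positive slope and 0.266% a negative one. The slope is the log2 change of a gene for each unit of the log2 index, so that 1 means proportional to Cdh5 and Pecam1. The median slope of the 10 was 0.72, and that of all tested genes was -0.00041.

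Notch4, the receptor found mainly in endothelium (chr17:34564268-34588503 on GRCm38, plus strand), had the steepest slope of the 10 estimates. Its levels in B16F0 were 27.2, 19.5, 165, 41.8 and 35.5 CPM in replicates 1 to 5, and in B16F10 they ran from 17.2 through a median of 47.9 to 227 CPM. The 3 endothelium-rich libraries held 165, 192 and 227 CPM and the other 9 at most 62.8, and both lines were present in each set. Its slope was 1.17 ± 0.16 (SE, adjusted p = 0.000643, edgeR).

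Notch1, the receptor through which Dll4 restrains sprouting (chr2:26457903-26516663, minus strand), spanned a narrower range. It stood at 37.5, 39.3, 135, 35.5 and 28.0 CPM in the 5 B16F0 libraries and between 27.8 and 118 CPM, with a median of 45.0, in the 7 of B16F10. The endothelium-rich libraries held 87.2 to 135 CPM against at most 45.8 elsewhere. The slope was 0.71 ± 0.08 (SE, adjusted p = 0.000168, edgeR). Notch2, which many cell types make (chr3:98013527-98150361, plus strand), behaved otherwise: it read 86.5, 106, 68.5, 88.2 and 95.8 CPM in B16F0 and 87.0 to 134 CPM, with a median of 97.5, in B16F10. Its lowest value was in the library with the highest index, and its slope of -0.15 ± 0.07 (SE) did not pass the test (adjusted p = 0.283, edgeR).

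Among the ligands, Dll4 (chr2:119325784-119335962, plus strand) was nearest to proportionality with the endothelial genes. Its levels were 20.1, 22.2, 114, 22.5 and 15.1 CPM in B16F0, and the 7 B16F10 libraries ran from 17.1 through 27.3 to 102 CPM. The 3 endothelium-rich libraries lay between 86.5 and 114 CPM and all others at or below 38.5. The slope of Dll4 was 0.99 ± 0.11 (SE, adjusted p = 0.00019, edgeR).

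Jag2, the other Jagged ligand (chr12:112907819-112929776, minus strand), stood at 5.82, 3.45, 24.3, 7.44 and 5.76 CPM in B16F0 and at 4.24 to 29.98 CPM, with a median of 12.5, in B16F10. Its slope was 0.88 ± 0.16 (SE, adjusted p = 0.00686, edgeR), and it was the single call of the 6 that leaving out 1 library ended (0.72, adjusted p = 0.0648 without B16F10 replicate 3). Jag1 read 50.9, 52.1 and 52.1 CPM in the endothelium-rich libraries, inside the range of 22.9 to 53.7 CPM of the other 9, and its slope was 0.16 ± 0.09 (SE, adjusted p = 0.387, edgeR).

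Of the target genes, Hey1, a transcriptional repressor switched on by Notch (chr3:8663359-8667256, minus strand), rose with the index with a slope of 0.74 ± 0.12 (SE, adjusted p = 0.0032, edgeR). It read 5.08, 15.7, 30.4, 4.34 and 3.35 CPM in B16F0 and 4.25 to 34.5 CPM, with a median of 7.20, in B16F10. Outside the endothelium-rich libraries its highest value was the 15.7 CPM of B16F0 replicate 2. Nrarp, which is switched on by Notch and dampens the signal in return (chr2:25180758-25183339, plus strand), read 13.3, 18.8, 53.9, 13.6 and 4.61 CPM in B16F0 and 7.93 to 39.8 CPM, with a median of 16.6, in B16F10. Its slope was 0.82 ± 0.14 (SE, adjusted p = 0.004, edgeR), and the 3 endothelium-rich libraries again held its 3 highest values.

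Rbpj, the factor that all Notch receptors act through (chr5:53466152-53657362, plus strand), was among the steadiest of the 10. It lay between 24.1 and 34.5 CPM in B16F0 and between 19.7 and 36.2 CPM, with a median of 29.9, in B16F10. Its slope was -0.14 ± 0.08 (SE, adjusted p = 0.363, edgeR).

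**Figure D2:**
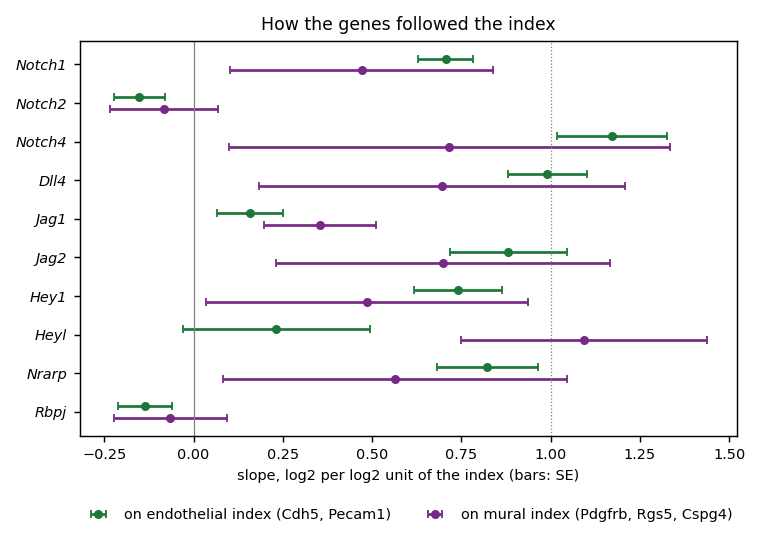
Slope of each gene on the endothelial index and on the mural index (log2 change per unit of the log2 index, bars are SE; lane and tumour line in each fit). The slopes of Notch1, Notch4, Dll4, Jag2, Hey1 and Nrarp on the endothelial index lie between 0.71 and 1.17, and the slope of Heyl on the mural index is 1.09.

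These slopes rest on the 3 endothelium-rich libraries. Leaving out any 1 library kept 5 or 6 of the 10 genes called, but without all 3 none was called (edgeR), and neither was any of the other tested genes. In that fit of 9 libraries the slopes of Notch1, Dll4, Hey1 and Nrarp were 0.15, 0.32, 0.27 and 0.87, and those of Notch4 and Jag2 were -0.26 and -0.087, with standard errors of 0.25 to 0.67 over the 6. With the library name prefix in place of the lane the same 6 genes were called, with slopes of 0.71 for Notch1 to 1.03 for Hey1 apart from Jag2 at 0.50 (adjusted p = 0.0341, edgeR). With the mural index added to the fit of all 12 libraries the same 6 genes were called, with slopes of 0.68 for Notch1 to 1.13 for Notch4, beside a background of 5.05% of tested genes with positive slopes.

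The make-up of the receptor and ligand pools differed between the endothelium-rich libraries and the rest. As a share of Notch1 to Notch4 together, in CPM per kb, Notch4 made up 54.1% to 64.0% in the 3 endothelium-rich libraries and 12.9% to 35.5% in the other 9. Notch2 made up 14.1% to 17.7% in the former and 32.0% to 63.0% in the latter, so Notch4 was the most abundant receptor in the former and Notch2 in all of the latter but B16F10 replicate 1, where Notch4 was slightly ahead. Among the ligands Dll1, Dll4, Jag1 and Jag2, Dll4 took 55.6% to 61.6% in the 3 libraries and 28.2% to 48.3% elsewhere, and Jag1 18.4% to 23.4% against 34.1% to 58.2%. Both tumour lines were present on each side. No test was run on these shares, which carry the same contrast as the slopes.

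**Figure D3:**
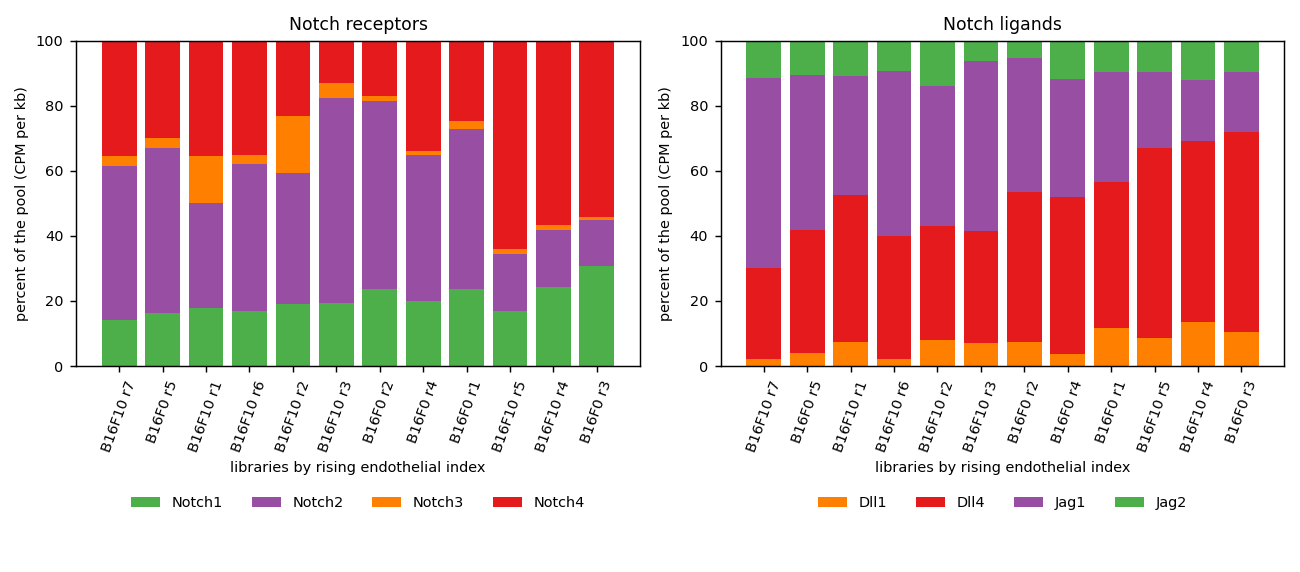
Share of each receptor (left) and ligand (right) in the summed CPM per kb of its pool, in percent, for each of the 12 libraries in order of rising endothelial index. Notch4 and Dll4 take the largest shares in the 3 libraries at the right, at least 54.1% and 55.6%.

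Between the tumour lines, none of the 10 genes was called higher or lower in B16F10 without adjustment for endothelial content (edgeR, lane and tumour line in the fit), where 1.3% of all tested genes were higher and 1.47% lower. At an unadjusted p under 0.05, 2 were higher and none lower, beside 965 higher and 1043 lower of all 13534 tested genes (edgeR). At a false discovery rate of 0.05, limma-voom called none and DESeq2 called Jag1. All 10 estimates were above 0, with a median log2 fold change of 0.60 against 0.019 for all tested genes, of which 7105 of 13534 were above 0. The sign of 7 of them depended on the setting: with the melanocytic index in the fit the estimates of Notch4, Dll4, Jag2, Hey1, Notch1 and Nrarp lay between -0.80 and -0.27, with the background reads they lay between -0.46 and -0.085, and Rbpj was at -0.036 with no filter on low genes. Those of Notch2, Jag1 and Heyl were above 0 in every setting run. With the endothelial index in the fit, 1 gene was called higher, Jag1, and none lower, beside 1.64% higher and 2.06% lower over all tested genes. The median estimate was then 0.39, against 0.011 for all tested genes. None of the 10 had all B16F10 libraries above, or all below, all B16F0 libraries, a separation seen upwards for 1.27% and downwards for 1.46% of tested genes.

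**Figure D4:**
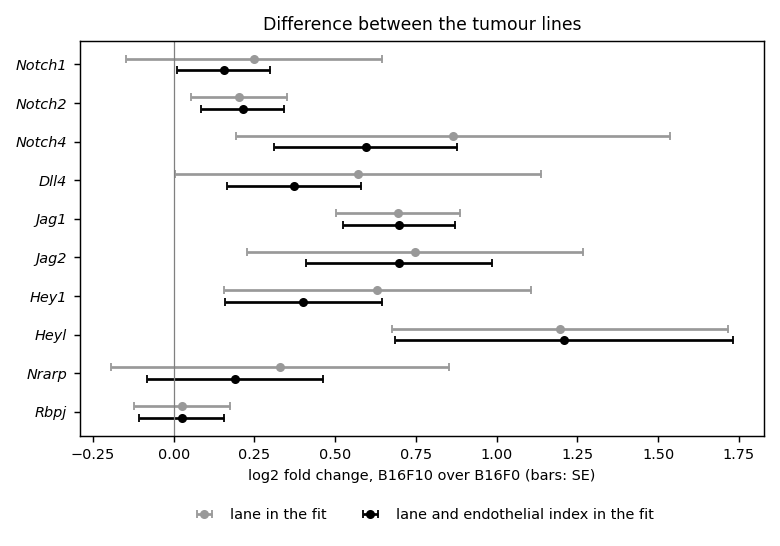
Log2 fold change of each gene, B16F10 over B16F0 (bars are SE), with lane in the fit and with lane and the endothelial index in the fit. The estimates for Notch4, Dll4 and Hey1 are smaller with the index (0.86 to 0.59, 0.57 to 0.37 and 0.63 to 0.40), and those of Jag1 (0.69 and 0.70) and Heyl (1.20 and 1.21) hardly differ.

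Jag1 (chr2:137081456-137116644, minus strand) was the 1 gene called between the lines. It read 22.9, 29.5, 50.9, 25.3 and 28.6 CPM in the 5 B16F0 libraries, a mean of 31.4 ± 11.2 (SD, n = 5), and in the 7 B16F10 libraries it ran from 39.0 through a median of 50.5 to 53.7 CPM, a mean of 48.7 ± 5.07 (SD, n = 7). Every B16F10 library lay above 4 of the 5 B16F0 libraries, and B16F0 replicate 3, the library with the highest endothelial index, lay among the B16F10 values. The log2 fold change was 0.69 ± 0.19 (SE, adjusted p = 0.0806, edgeR) without the index and 0.70 ± 0.17 (SE, adjusted p = 0.0448, edgeR) with it. The authors' deposited table lists Jag1 with a log2 fold change of 0.70 and a false discovery rate of 0.0247. B16F10 was higher in each lane, by 0.22 in lane 1, 1.07 in lane 2 and 0.92 in lane 6 on the log2 scale.

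The call for Jag1 with the index was close to the threshold. It was kept in 3 of the 12 fits that left out 1 library: those without B16F10 replicate 3 (0.80, adjusted p = 0.0369), B16F10 replicate 5 (0.74, adjusted p = 0.0439) or B16F0 replicate 3 (0.86, adjusted p = 0.00911). It was lost without any 1 of the other 9, with estimates of 0.56 to 0.78 and adjusted p of 0.0643 to 0.167 in edgeR. Without the index Jag1 was called when B16F10 replicate 3 (adjusted p = 0.0269) or B16F0 replicate 3 (adjusted p = 0.0058) was left out. Leaving out the 3 endothelium-rich libraries gave 0.86 (adjusted p = 0.0116) without the index and 0.76 (adjusted p = 0.056) with it. Adding the mural index lowered the estimate to 0.40 (adjusted p = 0.399), and adding the background reads lowered it to 0.48 (adjusted p = 0.215); their part in the difference was not tested further.

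The 6 genes that followed the endothelial index had wide errors between the lines. Without the index the estimates were 0.86 ± 0.67 for Notch4, 0.25 ± 0.40 for Notch1, 0.57 ± 0.57 for Dll4, 0.75 ± 0.52 for Jag2, 0.63 ± 0.48 for Hey1 and 0.33 ± 0.52 for Nrarp (SE). With the index the standard errors shrank and the estimates were 0.59 ± 0.28, 0.15 ± 0.14, 0.37 ± 0.21, 0.70 ± 0.29, 0.40 ± 0.24 and 0.19 ± 0.27 in the same order. None of these passed the test, with adjusted p of 0.233 for Jag2 to 0.785 for Nrarp in edgeR. Without B16F0 replicate 1, the single B16F0 library on lane 2, the estimates with the index were 0.33, 0.0036, 0.12, 0.42, 0.24 and -0.033. Within lanes the sign varied: Dll4 differed by -0.26, 0.68 and 0.83 in lanes 1, 2 and 6, Nrarp by -0.83, 0.40 and 1.12, Hey1 by -0.29, 0.46 and 1.06, and Notch1 by -0.13, 0.27 and 0.39, while Notch4 (0.02, 0.84 and 1.00) and Jag2 (0.29, 1.20 and 0.79) were above 0 in each.

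Notch2 differed by 0.20 ± 0.15 (SE, adjusted p = 0.588, edgeR) without the index and 0.21 ± 0.13 (SE, adjusted p = 0.438, edgeR) with it. Rbpj differed by 0.03 ± 0.15 and 0.02 ± 0.13 (SE, adjusted p = 0.961 and 0.951, edgeR). Each gene's level was also expressed relative to the endothelial index of its library, which assumes a slope of 1. Two-sided exact permutation within lanes then gave p of 0.0611 for Jag2 to 0.872 for Rbpj, where the smallest possible was 0.00556. Each was 1 after adjustment over all 13534 genes, which a gene alone could not pass with that floor, so the adjusted values decide nothing. Notch2, Rbpj, Jag1 and Heyl had slopes of -0.15, -0.14, 0.16 and 0.23, so their relative levels also carry the index itself.

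Heyl, a Hey-family repressor known from mural cells as a target of Notch3 (chr4:123233556-123249875, plus strand), had the largest estimate between the lines and the fewest reads. It read 0.80, 0.85, 1.19, 0.23 and 0.31 CPM in B16F0, from 12, 14, 14, 4 and 3 counts, and in B16F10 it ran from 0.23 through 1.30 to 7.10 CPM, from 3 to 71 counts. Its 2 highest values, 7.10 and 3.53 CPM, were in B16F10 replicates 2 and 1, the libraries with the high mural index and the most background reads, and the other 10 libraries reached at most 1.63 CPM. The log2 fold change was 1.20 ± 0.52 (SE, adjusted p = 0.301, edgeR) and 1.21 ± 0.52 (SE, adjusted p = 0.254, edgeR) with the index. By lane it was 0.47, 2.43 and 0.53, and without B16F0 replicate 1, the single B16F0 library on lane 2, the estimate was 0.69 and 0.68 with the index. Per kilobase, Heyl stood between 1.85 and 81.5 times the mean of the background genes of its library.

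**Figure D5:**
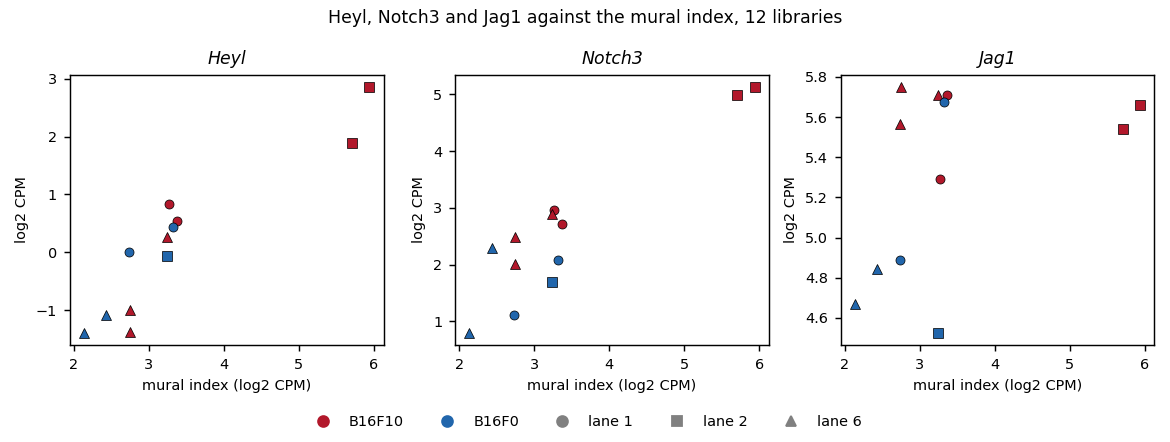
Levels of Heyl, Jag1 and Notch3 (CPM, log axis) against the mural index of the library (mean log2 CPM of Pdgfrb, Rgs5 and Cspg4). Each point is 1 library; B16F10 replicates 1 and 2 stand apart at an index of 5.71 and 5.94, and hold the highest Heyl (3.53 and 7.10 CPM) and Notch3 (31.4 and 34.9 CPM).

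The mural index and the sum of the fibroblast markers were highest in B16F10 replicates 1 and 2, but the sum of the 12 mural markers was not. For the mural index, B16F10 libraries averaged 3.86 ± 1.37 (SD, n = 7) and B16F0 libraries 2.77 ± 0.51 (SD, n = 5). The difference did not pass a two-sided exact permutation test over all libraries (p = 0.135) and had p = 0.0111 in one within lanes (0.0333 after adjustment over 3 indices), with B16F10 higher by 0.29, 2.58 and 0.63 in lanes 1, 2 and 6. None of the 10 genes was called for a slope on the mural index (edgeR). Of all tested genes, 0.399% were called for a positive slope and 0.0887% for a negative one. At an unadjusted p under 0.05, for which no share of all genes was taken here, 2 of the 10 passed. The 2 were Heyl, with 1.09 ± 0.34 (SE, adjusted p = 0.0982), and Jag1, with 0.35 ± 0.16 (SE, adjusted p = 0.178). Both slopes depended on single libraries: without B16F0 replicate 1 they were 1.98 ± 0.89 and 0.94 ± 0.35 (SE), without lane 2 they were 1.73 ± 0.95 and 0.97 ± 0.36, and without B16F0 replicate 3 that of Jag1 was 0.14 ± 0.15. With the mural index as a covariate the line difference of Heyl was 0.11 ± 0.48 (SE, adjusted p = 0.964, edgeR), and without lane 2 it was 0.71 ± 0.53 (SE, adjusted p = 0.782, edgeR). The 12 mural markers summed to between 200.5 and 782 CPM in B16F10 and between 182 and 838 CPM in B16F0, and none of them was at 0 in all libraries. This sum was highest in the endothelium-rich libraries B16F0 replicate 3 (838 CPM) and B16F10 replicate 4 (782 CPM). In B16F10 replicates 1 and 2 it was 581 and 621 CPM. For the 9 fibroblast markers the sum was 1810 CPM in replicate 1 and 2189 CPM in replicate 2 of B16F10, 193 to 1073 CPM in the other B16F10 libraries and 191 to 874 CPM in B16F0, and none of them was at 0 in all libraries either. Their median log2 fold change was 0.79 and their median slope on the mural index 0.99, against 0.48 and 0.77 for the mural list. The mural list holds the genes of the mural index, so its slope on that index is partly built in. The part of either cell type in the values of Heyl and Notch3 was not tested beyond these fits.

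A wider list held 48 other genes of the pathway, of which 40 were tested. None was called higher in B16F10 and 2 were lower, without and with the index, beside 1.47% and 2.06% lower over all tested genes. The median log2 fold change of the 40 was 0.086 without the index and 0.078 with it. At an unadjusted p under 0.05 without the index, 1 was higher and 3 were lower (edgeR). Over all 13534 tested genes 965 were higher and 1043 lower at that threshold.

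The 2 that fell were Maml2, a coactivator that joins Rbpj and the receptor's intracellular domain on DNA, and Adam10, the protease that makes the first of the activating cuts in a bound receptor. Maml2 fell by 0.67 on the log2 scale (adjusted p = 0.0394, edgeR) and by 0.68 with the index (adjusted p = 0.0213, edgeR). Adam10 fell by 0.72 (adjusted p = 0.0341, edgeR) and likewise by 0.72 with the index (adjusted p = 0.0311, edgeR). Leaving out any 1 of the 12 libraries ended the call of Maml2 without the index (adjusted p up to 0.126), and with it the call was lost without B16F10 replicates 3 or 4 or B16F0 replicates 3, 4 or 5 (up to 0.0751). Adam10 kept its call only without B16F10 replicate 3 or B16F0 replicates 2 or 3, and with the index only without B16F10 replicates 3 or 5 or B16F0 replicate 2. With the mural index in the fit the adjusted p of Adam10 was 0.43 and that of Maml2 was 0.0939.

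Of the 40 genes 3 rose with the endothelial index and none fell, beside 4.1% of all tested genes: the ligand Dll1 (slope 1.20, adjusted p = 0.000186), the target Hes1 (0.62, adjusted p = 0.00103) and Neurl1b (0.67, adjusted p = 0.00824, edgeR), a ubiquitin ligase of the family that drives ligand uptake. All 3 were among the 4.71% of tested genes that were higher in each endothelium-rich library than in any other. Hes1 read 10.5 to 18.8 CPM there and at most 7.20 CPM elsewhere, and Dll1 read 12.4 to 23.8 CPM against at most 5.93.

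Notch3, the receptor of mural cells and the most abundant receptor outside the 10, read 31.4 and 34.9 CPM in B16F10 replicates 1 and 2. B16F10 libraries averaged 13.8 ± 13.3 CPM (SD, n = 7) and B16F0 libraries 3.09 ± 1.33 CPM (SD, n = 5). The log2 fold change of 1.49 ± 0.43 (SE, adjusted p = 0.0941, edgeR) was not called, whereas DESeq2 (adjusted p = 0.00818) and limma-voom (adjusted p = 0.0126) called it. Of the 12 fits that left out 1 library, edgeR called it only without B16F0 replicate 5 (1.95, adjusted p = 0.0348). The estimate was 0.50 (adjusted p = 0.601, edgeR) with the mural index in the fit and 0.88 (adjusted p = 0.201, edgeR) with the background reads. Without lane 2 it was 1.02 (adjusted p = 0.353, edgeR), and without B16F0 replicate 1 it was 1.02 (adjusted p = 0.222, edgeR). The slope of Notch3 on the mural index had an adjusted p of 0.0583, and with the endothelial index also in the fit it was 1.18 ± 0.24 (SE, adjusted p = 0.0378, edgeR), where 1.89% of tested genes had a positive slope and none of the 10 was called. Without the endothelial index, the mural slope was called in 2 of the 12 fits that left out 1 library. It was 1.402 ± 0.63 (SE, adjusted p = 0.352, edgeR) without B16F0 replicate 1. Without lane 2 it was 1.425 ± 0.71 (SE, adjusted p = 0.384, edgeR). The slope of Notch3 on the endothelial index was 0.0089 ± 0.21 (SE). The most abundant genes of the other roles were not called between the lines: the target Hes6 at -0.14, the cofactor Spen at 0.76, the receptor-modifying enzyme Pofut1 at -0.11 and Sel1l, which serves protein turnover, at 0.41.

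The genes whose levels over the 12 libraries were most like those of each member were sought among 10139 genes of at least 5 CPM, by the mean absolute difference of log2 CPM after centring. For Notch4 they were Inhbb (0.228), Arap3 and Adamts9, for Notch1 Ets2 (0.0834), Rftn1 and Cpne8, and for Notch2 Agk (0.0797), Ctnnal1 and Trmu. For Dll4 they were Prkch (0.114), Chst15 and Tspan18, for Jag2 Pcdh17 (0.181), Unc5b and Pxdn, and for Jag1 Nfkb1 (0.190), Ccdc71l and Suv39h1. Hey1 was nearest to Adcy4 (0.167), Slc9a3r2 and Npr1, Nrarp to Kitl (0.176), Prkch and Npr3, and Rbpj to Ppp2r2d (0.0964), Wee1 and Hcfc2. Heyl was nearest to Mrc2 (0.267), Col8a1 and Col6a2, of which the latter 2 encode collagens. Libraries that share a lane or a high endothelial content move such values together, so the distances are a description.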

How the data were processed

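For each of 12 libraries (ScriptSeq kit, per the labels) the authors deposited raw counts of reads, 1 row a symbol. Per the submitters' processing notes the build was mm10 and the tools included STAR 2.2.1 and featureCounts 1.6.0, with cutadapt 1.16, R 3.3.2 and edgeR. Annotation and strandedness of the counting were not stated, and reads of overlapping or antisense genes may be shared. The authors' deposited table of log2 fold changes and p-values is written with decimal commas, read here as points; a normalized table had lost its decimal marks and was not used.

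Labels gave the groups, and library names in them gave the lane (1, 2 or 6). Of 24421 symbols 1069 had no count and 13534 passed filterByExpr of edgeR 4.0.16 (minimum count 10). After TMM scaling, edgeR's quasi-likelihood test was run in R 4.3.3, and p-values were adjusted over all tested genes by Benjamini-Hochberg, with a threshold of 0.05. The biological coefficient of variation was 0.318 with lane and line in the fit (8 residual degrees of freedom) and 0.277 with the endothelial index added (7). The index is the mean log2 CPM of Cdh5 and Pecam1, and the mural index that of Pdgfrb, Rgs5 and Cspg4, with a prior count of 2. CPM used TMM-scaled totals. CPM per kb used the principal transcript of GENCODE M21. The fits were tested on simulated data. Without the endothelial index 67 of 100 2-fold and 93 of 100 4-fold line differences were recovered, with 8 false of 168 calls. With it 69 and 92 were recovered, with 13 false of 174 calls. Of 200 genes given a slope of 1 on the index, 177 were recovered, with 2 false of 181 calls. Totals of 5322510 to 20569186 counts limit genes of few CPM most, and a level from 3 counts, such as the lowest of Heyl, is imprecise.

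All 10 members were named, with the 3 genes most like each. Of the other pathway genes, those called and the most abundant of each role were named. The members and lists were chosen with earlier results of these data known. Alternatives covered scaling, filters, tools (DESeq2 1.42.0, limma-voom 3.58.1), lane, other indices and covariates, and libraries left out. Within each group, every pair of libraries differed by more than counting error.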

Additional observations from a re-analysis of the deposited data

Results flagged for a closer look

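In the B16F0 group, replicate 3 stood far above the other 4 libraries for Dll4, with 114 CPM against 15.1 to 22.5 CPM, and for Notch1, with 135 CPM against 28.0 to 39.3 CPM. The gap to the next library was 0.803 and 0.785 of the group's log2 range. This library also had the highest endothelial index of the 12, at 9.47. These were 2 of 24 groups of values examined, where chance alone marks about 1 in 20. Both flags fell on the same library and both genes followed the endothelial index, so they are not separate observations.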

How the results depend on the processing

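Across 27 to 30 other settings a count, no member was called lower in B16F10 or negative on the endothelial index. The members called higher without the index numbered 1 (Jag1) with DESeq2 and without the 3 endothelium-rich libraries, and 0 to 1 over fits leaving out 1 library. With the index, 0 were called, and not 1, with no filter on low genes, no lane term, the 3 endothelium-rich libraries, lane 2 or the 2 Rn45s-rich libraries left out, Rn45s left out of the counts, Cdh5 alone as index, the index as an offset, or the mural index or background reads added; leaving out 1 library gave 0 to 1. Genes called positive on the endothelial index numbered 6 in most settings, 0 without the 3 endothelium-rich libraries and 5 to 6 with 1 library left out. The slope count on the mural index stayed at 0, also with 1 library left out (0 to 0). The background reads covariate, and the mural slopes without single libraries or lane 2, were chosen after seeing the data. Over all genes the line difference called 30 to 407 higher and 28 to 445 lower, with the index 11 to 500 and 8 to 557, and the endothelial slope 0 to 1092 positive and 0 to 770 negative.

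No estimate that changed sign between the lines was called, and the cause was not tested. With the background reads, the log2 fold changes were -0.38 for Notch1, -0.37 for Notch4, -0.43 for Dll4, -0.18 for Jag2, -0.085 for Hey1 and -0.46 for Nrarp, and with the index also in the fit -0.092 for Notch1, -0.029 for Dll4 and -0.088 for Nrarp. With the melanocytic index they were -0.57 for Notch1, -0.80 for Notch4, -0.72 for Dll4, -0.42 for Jag2, -0.27 for Hey1 and -0.74 for Nrarp. With the mural index they were -0.23 for Notch1, -0.14 for Dll4 and -0.26 for Nrarp, and with both indices -0.14, -0.074 and -0.16. Without the 2 Rn45s-rich libraries Notch1 was -0.11 and Nrarp -0.24, and with the index Nrarp was -0.040 and Rbpj -0.012. Without lane 2 Rbpj was -0.0043 and, with the index, Nrarp -0.029. With the library name prefix in place of lane Rbpj was -0.015 and, with the index, Nrarp -0.047. With no lane term Nrarp was -0.021, with no filter Rbpj was -0.036 and -0.053 with the index, and with Rn45s left out of the counts Rbpj was -0.0015 with the index. Leaving out 1 library gave -0.052 to 0.58 for Notch1 and -0.038 to 0.097 for Rbpj, and with the index -0.033 to 0.44 for Nrarp and -0.024 to 0.099 for Rbpj. Without the 3 endothelium-rich libraries the endothelial slopes of Notch4, Jag1, Jag2 and Heyl were -0.26, -0.34, -0.087 and -0.47, and that of Rbpj was 0.24. Heyl could not be tested without B16F10 replicate 3, where it failed the filter.

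Replicate numbers did not pair the libraries: same-numbered deviations correlated between -0.29 and 0.32. With the replicate block in place of lane, 0 members were called for the line difference without the index, 0 with it and 0 for the endothelial slope, and Jag1 stood at 0.67 (edgeR, adjusted p = 0.446) and 0.61 with the index (adjusted p = 0.47).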

Other observations

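Of the 12 arterial markers examined, 10 were tested and 8 of these rose with the endothelial index (edgeR), as did 9 of 10 tip-cell markers, beside 4.1% of all tested genes. Both lists hold Unc5b and Cxcr4, so the counts are not separate. None of either list was called between the tumour lines, without or with the index. Over all tested genes 1.3% were called higher and 1.47% lower without it, and 1.64% higher and 2.06% lower with it. Of the 12 mural markers 11 were tested, and none was called between the lines. With the endothelial index 3 rose, and with the mural index 4, beside 4.1% and 0.399% of all tested genes. The list holds Pdgfrb, Rgs5 and Cspg4, which make up the mural index, so the count on that index is partly built in.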
